A study of Homo sapiens with 8 samples.

Results

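SOX proteins are transcription factors that bind DNA through an HMG box, a fold that bends the helix, and they are sorted into subgroups by the likeness of that box. The 10 SOX genes described here are SOX2, SOX4, SOX5, SOX6, SOX7, SOX8, SOX9, SOX11, SOX12 and SOX13. They were found as all probe sets whose platform annotation names one of these genes, which gave 35 of the 54613 probe sets and 10 of the 19775 genes tested, and each of the 35 names 1 gene only. The rule itself uses names and no measured value.

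The cells were MDA-MB-231, a mesenchymal breast cancer line of metastatic origin with a mutant p53, given TGFβ for 3 h after 24 h without serum. They were compared with MDA-MB-231 cells that were starved in the same way and left untreated. Both groups carried a retroviral hairpin RNA against GFP, so every value comes from infected control cells, and p53-depleted cells were not analysed here. The dose is labelled 5 µg/ml, a unit that may be an error because doses of this cytokine are commonly stated in ng/ml. There were 4 arrays per group, with the letters A to D in both. The labels call them biological replicates and do not say that cultures were separate, so a p-value here speaks of the spread among arrays only, and each value is a bulk signal in which fewer expressing cells and less RNA per cell cannot be told apart.

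TGFβ is a secreted cytokine whose receptors phosphorylate SMAD proteins, which then enter the nucleus and bind DNA with partner factors. SOX4 belongs to the genes that TGFβ raises in other cell types, and in mouse mammary epithelium it takes part in the epithelial to mesenchymal transition. SOX9 is a progenitor factor of cartilage and of several epithelia, among them the mammary gland in mice. The comparison asks whether any of these factors had moved 3 h after the cytokine.

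The promoters of SOX4 and SOX13 are shown here because these genes had the largest negative differences among the stronger SOX signals, and because SMAD proteins bind a short box that can be looked for in the letters. The 250 bases before the RefSeq start of SOX4 (GRCh38.p14, chr6:21593501-21593750, plus strand) and of SOX13 (GRCh38.p14, chr1:204072865-204073114, plus strand) are given 5′ to 3′. Capitals mark AGAC or its other strand GTCT, the core of the SMAD box.
SOX4: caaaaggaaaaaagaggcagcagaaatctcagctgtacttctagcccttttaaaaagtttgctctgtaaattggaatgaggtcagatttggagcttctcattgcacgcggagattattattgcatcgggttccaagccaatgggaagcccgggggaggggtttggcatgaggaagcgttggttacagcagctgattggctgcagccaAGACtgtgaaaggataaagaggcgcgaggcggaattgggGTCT
SOX13: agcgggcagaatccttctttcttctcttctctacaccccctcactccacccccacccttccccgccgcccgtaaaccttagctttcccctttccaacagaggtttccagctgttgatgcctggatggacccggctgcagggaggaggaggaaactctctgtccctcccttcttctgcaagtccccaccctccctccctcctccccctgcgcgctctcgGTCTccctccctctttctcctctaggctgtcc
The SOX4 window held 2 core boxes and the SOX13 window 1, and 77.5% of the 35116 RefSeq windows of the same length held at least 1. The share of windows with 2 or more was not counted. The longer form CAGAC, or GTCTG on the other strand, which contains the core, was in neither window and in 38.0% of all windows. These are matches of letters in these windows only. The GTCT of SOX4 ends its window, so whether a G follows was not seen. Promoter entries were found for 6 of the 10 genes, SOX2, SOX4, SOX5, SOX6, SOX12 and SOX13. The others are SOX7, SOX8, SOX9 and SOX11.

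The markers listed for the line and for the treatment gave the following values. Of the genes taken as high in this line, VIM, CD44, AXL, FN1 and CAV1, the lowest signal on any array was 9.05 (log2). Among those taken as low, PGR averaged 3.26 in TGFβ-treated and 3.12 in untreated cells and ESR1 5.83 and 5.76, while EPCAM (8.33 and 8.39) and GATA3 (7.33 and 7.57) were not low. CDH1, the epithelial cadherin, rose to 4.98 in TGFβ-treated cells, against 4.08 in untreated cells (log2 difference 0.90 ± 0.11 SE, adjusted p = 0.00579). Of the markers of other cell types, PTPRC of blood cells averaged 4.35 in TGFβ-treated and 4.20 in untreated cells and MLANA of melanocytes 3.61 and 3.35, whereas PECAM1 of endothelium lay at 7.16 and 7.59; none of the 3 passed the test, though PECAM1 did, lower, with the array letter as a replicate block (adjusted p = 0.0155). The log2 signals of these 3, added up, gave 14.98 to 15.32 on TGFβ-treated and 14.78 to 15.44 on untreated arrays. This is a sum of logs and not a total amount, and its part in the SOX values was not tested. Of 5 early SMAD targets measured, 3 rose, none fell and 2 did not pass (2 to 4 called when 1 array was left out), with a median difference of 1.64 against 0.01 over all genes. SMAD7, the inhibitory SMAD, averaged 7.78 in TGFβ-treated and 5.98 in untreated cells (log2 difference 1.81 ± 0.215 SE, adjusted p = 0.0039), and JUNB, an AP-1 factor, averaged 9.87 and 8.23 (1.64 ± 0.11 SE, adjusted p = 0.000168). SKIL, a SMAD corepressor, averaged 9.21 and 7.81, a difference of 1.405 ± 0.35 SE that did not pass without the block (adjusted p = 0.157, and 0.00205 with it). Array medians lay between 4.62 and 4.66. One array stood apart: on treated replicate A the actin control gave a 3′ signal 1.68 above its 5′ signal (log2), against 0.63 to 0.78 on the other treated arrays and 0.67 to 0.89 on the untreated ones, and the GAPDH control 0.54 against at most 0.14 elsewhere. Such an excess is a sign of shorter RNA or of shorter labelled product.

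SOX9 and SOX4 gave the strongest SOX signals, SOX13 followed, and most of the others lay in the lower part of the signal range. Of the 35 probe sets 12 averaged above the median of all probe sets, which was 4.64 (log2). They were both of SOX9, 4 of SOX4, 2 of SOX13, 2 of SOX6 and 1 each of SOX2 and SOX12, while none of SOX5, SOX7, SOX8 or SOX11 reached it. The probe sets that stand for SOX9 and SOX4 lay at the 96.3 and 93.5 percentile of all probe sets, and that of SOX13 at the 81.8 percentile. Probe sets bind with different strength, so this is an order of signals and not of RNA amounts. The values carry no detection call, and the low signals may be background.

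**Figure D1:**
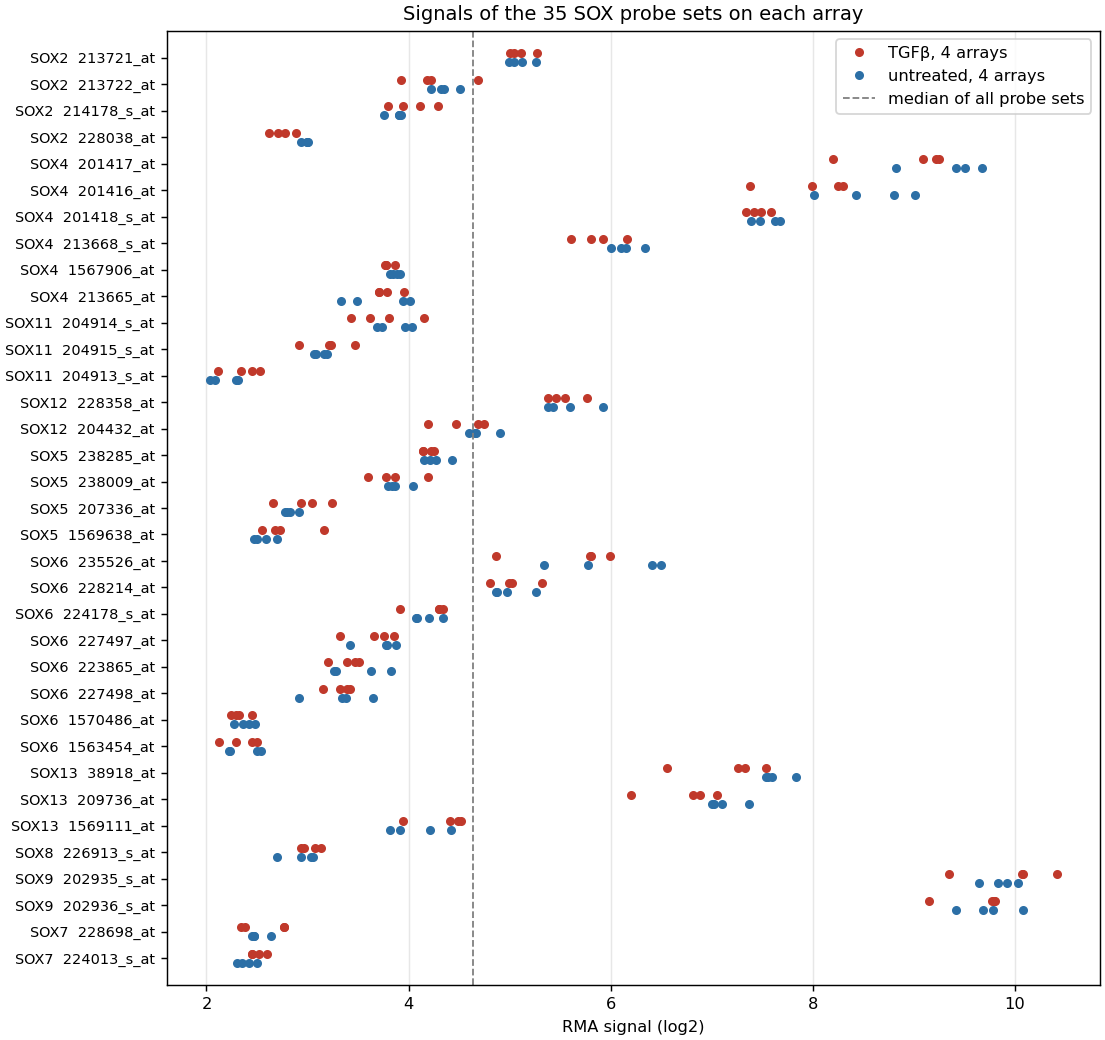
RMA signal (log2, horizontal axis) of each SOX probe set on the 4 TGFβ-treated (red, upper row of each pair) and 4 untreated arrays (blue, lower row), with the median of all probe sets as a dashed line at 4.64. The points of SOX9 lie between 9.15 and 10.42 in both groups and those of SOX7 between 2.31 and 2.77.

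None of the 35 SOX probe sets passed the test between TGFβ-treated and untreated cells. The smallest adjusted p was 0.539, in limma's fit over all 54613 probe sets, where 0.256% of probe sets were called (140, of which 83 rose and 57 fell). With 1 probe set for each gene none of the 10 genes passed either (smallest adjusted p = 0.525, for SOX13), where 0.576% of 19775 genes were called. At an unadjusted p under 0.05 there were 3 SOX probe sets, one each of SOX2, SOX4 and SOX13, which is 8.57% of the members and near the 7.44% of all probe sets. The difference was negative for 21 of the 35 and positive for 14, with a median of -0.04 against 0.01 over all probe sets. All treated arrays lay below all untreated arrays for 2 SOX probe sets (5.71%, against 1.97% of all probe sets) and above them for none (2.79% of all probe sets).

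Arrays of the same letter tended to deviate together. With the letter as a replicate block 1 of the 35 SOX probe sets was called, 201416_at of SOX4, lower after TGFβ (2.86% of members, where 0.989% of all probe sets were called lower). Over genes 1 of the 10 was called with the block, again SOX4 and again lower, where 2.18% of all genes were called lower.

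**Figure D2:**
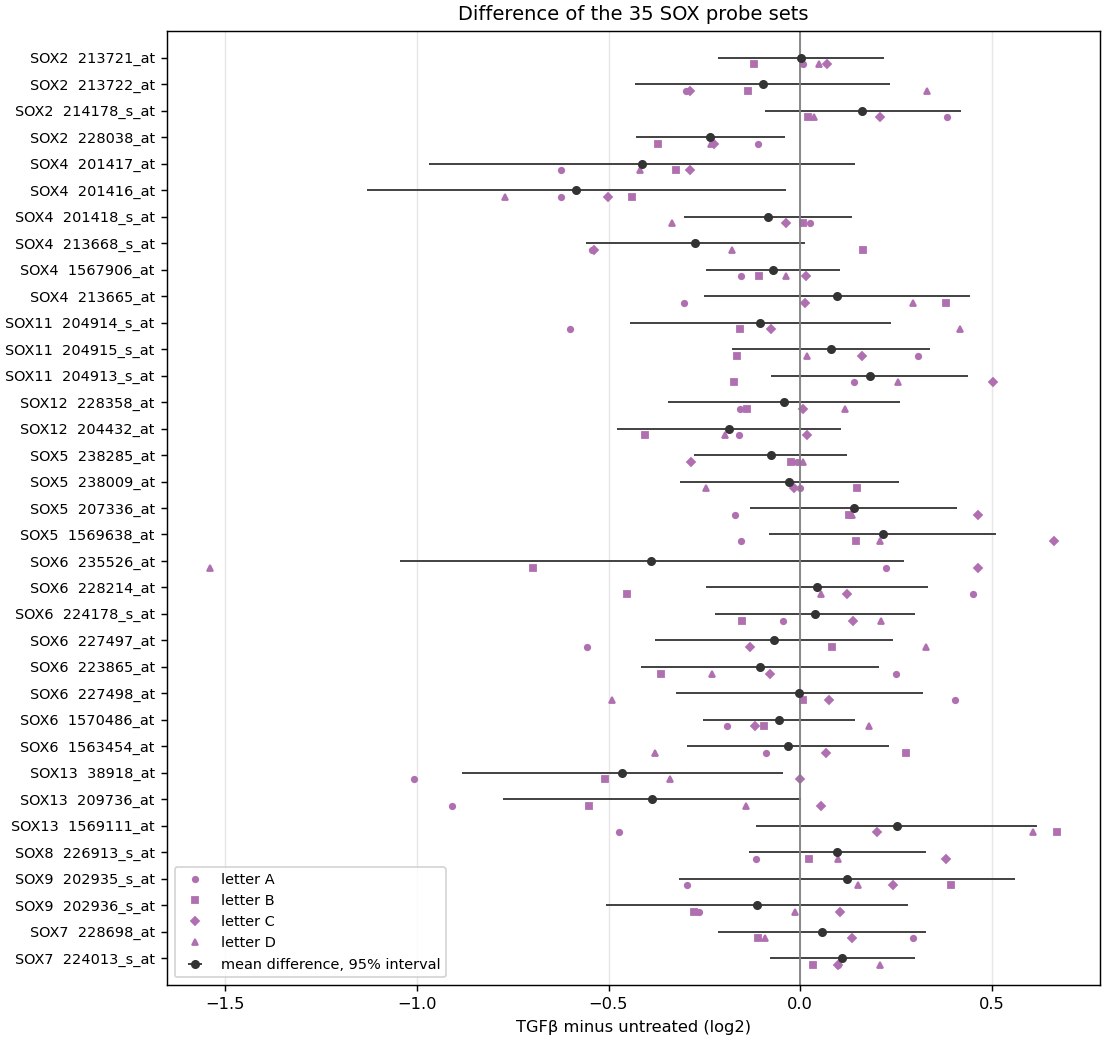
Difference of TGFβ-treated minus untreated arrays (log2, horizontal axis) for each SOX probe set: black points are means with 95% intervals from the fit without the block, and purple symbols are the 4 same-letter differences. The 2 probe sets of SOX4 with the strongest signals, 201417_at and 201416_at, have all 4 letters left of 0, whereas for SOX6 235526_at the letters run from -1.54 to 0.46.

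The SOXC subgroup holds SOX4, SOX11 and SOX12, factors of neural and mesenchymal progenitors. SOX4 (Entrez Gene 6659) was lower after TGFβ by 2 of its probe sets in every letter. Neither of the 2 passed the adjusted test without the letter as a replicate block. By 201416_at the TGFβ-treated arrays A to D read 7.38, 7.99, 8.30 and 8.25, against 8.01, 8.43, 8.80 and 9.02 on the untreated arrays A to D (log2). The groups overlapped, since untreated A lay among the treated arrays, but each treated array was below the untreated array of its letter. The means were 7.98 ± 0.42 in TGFβ-treated and 8.56 ± 0.44 in untreated cells (SD, n = 4 in each group), a log2 difference of -0.58 ± 0.25 SE (95% interval -1.13 to -0.04, adjusted p = 0.623; SE 0.09 and adjusted p = 0.0162 with the letter as a replicate block).

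**Figure D3:**
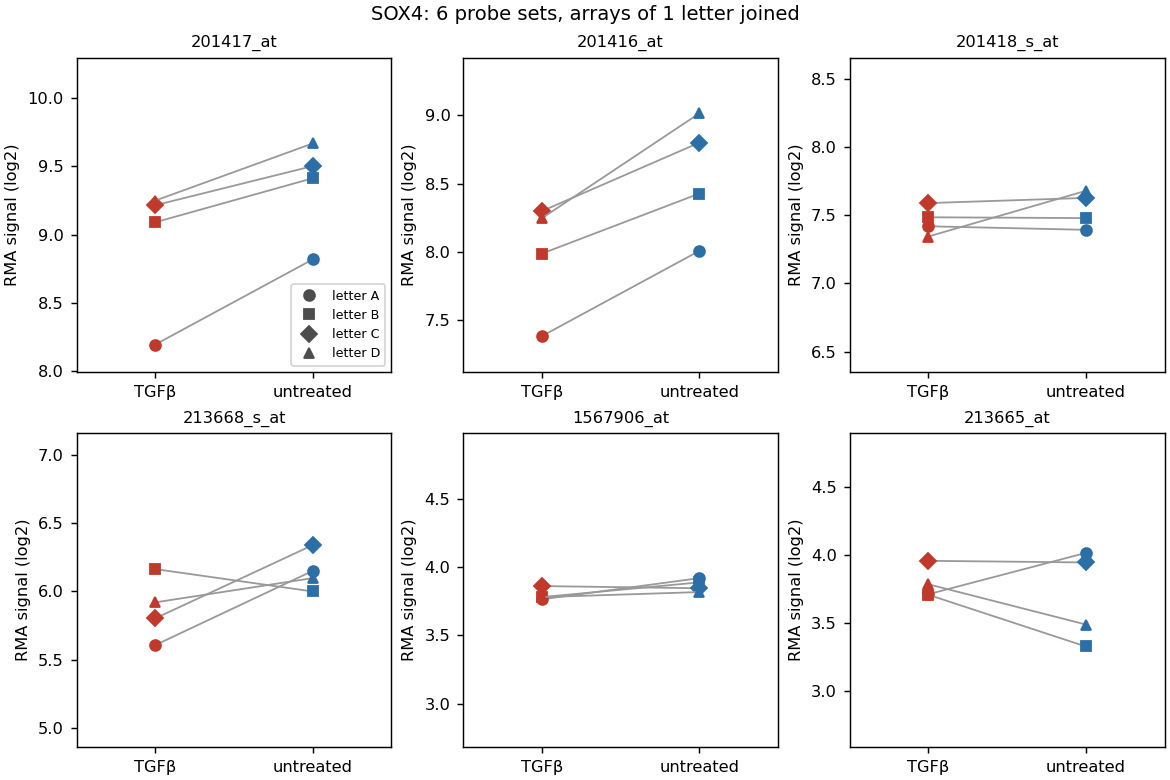
Signals (RMA, log2, vertical axes, each spanning the same range) of the 6 SOX4 probe sets on TGFβ-treated (red) and untreated arrays (blue), with arrays of the same letter joined by a line. By 201417_at and 201416_at all 4 lines climb towards the untreated side, and by 201418_s_at 3 of the 4 are nearly flat.

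The probe set with the strongest signal, 201417_at, read 8.19, 9.09, 9.22 and 9.25 on TGFβ-treated arrays A to D and 8.82, 9.41, 9.50 and 9.67 on untreated arrays A to D. Its same-letter differences were -0.62, -0.32, -0.29 and -0.42. The mean difference was -0.41 ± 0.25 SE (95% interval -0.97 to 0.14, adjusted p = 0.786). With the letter as a block the SE was 0.09 and the adjusted p 0.0693 over all probe sets, and 0.0326 over genes, where this probe set stands for SOX4. The mean of all 6 probe sets gave -0.22 (adjusted p = 0.67). The lowest reading was that of treated replicate A, the array with the 3′ excess, at 0.99 below the mean of the other treated arrays. Without that array alone the difference was -0.17 (adjusted p = 0.85), and with both arrays of letter A left out it was -0.34 in the block fit over genes (adjusted p = 0.0533). The gene call with the block was lost whichever letter was left out, with adjusted p = 0.121 without B, 0.0808 without C and 0.138 without D. By 201416_at the block fit gave -0.57 without letter A and still passed (adjusted p = 0.027), but not without letter B, C or D (adjusted p = 0.0753, 0.0656 and 0.102), each with 6 arrays left.

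The other SOX4 probe sets gave smaller differences. By 201418_s_at, still a strong signal, the TGFβ-treated arrays A to D read 7.42, 7.48, 7.59 and 7.34, against 7.39, 7.48, 7.63 and 7.68 on the untreated arrays. Only letter D was lower by more than 0.04, and the mean difference was -0.085 ± 0.10 SE (95% interval -0.30 to 0.13, adjusted p = 0.904). By 213668_s_at the TGFβ-treated arrays read 5.61, 6.16, 5.80 and 5.92 and the untreated arrays 6.15, 5.999, 6.34 and 6.10, with 3 of 4 letters lower (-0.27 ± 0.13 SE, adjusted p = 0.693). 1567906_at and 213665_at lay between 3.33 and 4.02 on all arrays, with differences of -0.07 and 0.10. The gap between 201416_at and 201418_s_at averaged 0.52 ± 0.405 in TGFβ-treated and 1.02 ± 0.31 in untreated cells (SD, n = 4 in each group) and was smaller after TGFβ in 4 of 4 letters. That change of -0.50 did not pass an exact two-sided permutation test over arrays (p = 0.114, adjusted p = 0.429 over the 15 pairs of SOX4 probe sets, where the smallest p the design allows is 0.0286). Between arrays of the same letter the gap changed by -0.65, -0.45, -0.46 and -0.43 in A to D (SD 0.10), all of 1 sign and larger than their spread. An exact two-sided sign-flip permutation test of these 4 changes gave the smallest p it allows, 0.125 (adjusted p = 0.234 over the 15 pairs), so 4 letters cannot bring it under the threshold. Other pairs of SOX4 probe sets reached the same p in this test, so it does not single out this pair. One was 201417_at with 201416_at, whose gap was larger after TGFβ in all 4 letters (mean change 0.17). The pairs were compared after their values had been seen.

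Treated replicate A was also the lowest treated array for both probe sets of SOX9, all 3 of SOX13 and 4 of the 6 of SOX4. Not all SOX probe sets were low on that array. Against the mean of the other treated arrays, SOX6 was higher by 0.51 (235526_at) and 0.37 (228214_at) and SOX12 by 0.30 (228358_at). Within the groups the signal of SOX4 by 201417_at went down as the actin 3′ excess went up (r = -0.87 over the 8 arrays after removal of the group means, a description that rests largely on treated replicate A). The 3′ excess itself averaged 0.965 in TGFβ-treated and 0.77 in untreated cells. An exact two-sided permutation test over arrays gave p = 0.743 (n = 4 in each group). That difference rests on treated replicate A, and such a test cannot give a small p when a single array stands far apart. The part of the 3′ excess in the SOX differences was not tested.

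**Figure D4:**
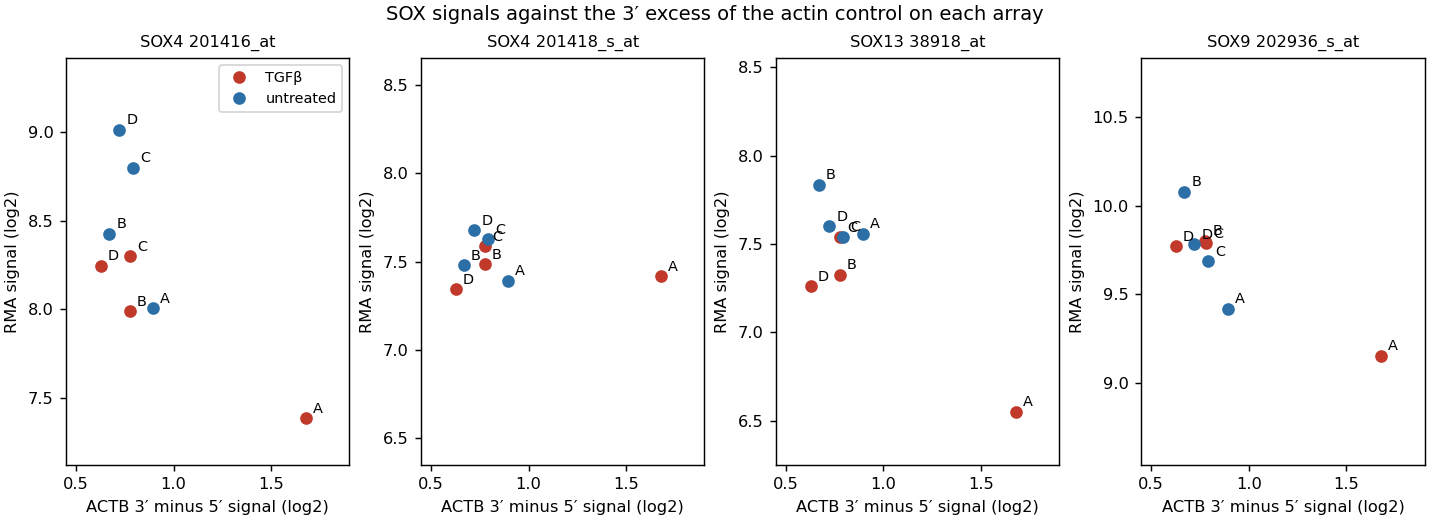
Signals of 4 SOX probe sets (RMA, log2, vertical axes) against the actin control's 3′ minus 5′ signal (log2, horizontal axis) on TGFβ-treated (red) and untreated arrays (blue), each point marked with its letter. Treated A lies alone at 1.68 and is the lowest point for SOX4 201416_at, SOX13 38918_at and SOX9 202936_s_at, but not for SOX4 201418_s_at.

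SOX11 had low signals by all 3 of its probe sets, between 2.03 and 4.15 (log2) over all arrays. By 204914_s_at, which stands for the gene, it averaged 3.75 ± 0.31 in TGFβ-treated and 3.85 ± 0.17 in untreated cells (SD, n = 4 in each group; difference -0.10 ± 0.15 SE, adjusted p = 0.932), and the other 2 had positive differences of 0.08 and 0.18. SOX12 by 228358_at read 5.77, 5.46, 5.38 and 5.55 on TGFβ-treated arrays A to D and 5.92, 5.60, 5.38 and 5.43 on untreated arrays A to D. The readings interleave, and the difference of -0.04 ± 0.14 SE has a 95% interval of -0.35 to 0.26. Its second probe set, 204432_at, gave -0.19 ± 0.13 SE (adjusted p = 0.823).

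The SOXD subgroup holds SOX5, SOX6 and SOX13, which lack an activation domain of their own and act through partners. SOX13, known in mice for its part in a lineage of T cells, gave lower signals by its 2 stronger probe sets. By 38918_at the TGFβ-treated arrays A to D read 6.55, 7.33, 7.54 and 7.26, against 7.56, 7.84, 7.54 and 7.60 on the untreated arrays A to D. The groups did not overlap, but by a margin of only 0.001 between treated C and untreated C. The means were 7.17 ± 0.43 and 7.63 ± 0.14 (SD, n = 4 in each group), a difference of -0.46 ± 0.19 SE (95% interval -0.88 to -0.05, adjusted p = 0.609; 0.19 with the letter as a block).

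The 4 letters of SOX13 were uneven. The difference by 38918_at was -1.01 in letter A, -0.51 in B, -0.34 in D and close to 0 in C. Without treated replicate A the value in the gene fit was -0.26, and with both A arrays left out it was -0.28 in the block fit over genes (adjusted p = 0.178). The mean of the 3 probe sets gave -0.20 (adjusted p = 0.815). By 209736_at the TGFβ-treated arrays read 6.20, 6.82, 7.06 and 6.88 and the untreated arrays 7.10, 7.37, 7.001 and 7.03, a difference of -0.39 ± 0.17 SE (adjusted p = 0.674), with letters A and B lowest again. The third probe set, 1569111_at, had lower signals, up to 4.52, and went the other way in 3 of 4 letters (0.25 ± 0.165 SE, adjusted p = 0.804).

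SOX6, which builds cartilage together with SOX5 and SOX9, had 8 probe sets, and 6 of them had a small negative difference. The one with the strongest signal, 235526_at, read 5.997, 5.795, 5.80 and 4.87 on TGFβ-treated arrays A to D and 5.77, 6.49, 5.34 and 6.41 on untreated arrays A to D. Its spread was the widest of the 35 probe sets within each group (SD 0.51 in TGFβ-treated and 0.55 in untreated cells), and letters A and C were higher while B and D were lower. The mean difference of -0.39 ± 0.30 SE has a 95% interval of -1.045 to 0.27 (adjusted p = 0.836), which spans both directions, and it was -0.14 without treated D and -0.61 without untreated C. The other 7 differed by -0.11 to 0.04. SOX5 lay between 2.47 and 4.43 by its 4 probe sets, with differences from -0.08 to 0.215, 2 negative and 2 positive (smallest adjusted p = 0.791).

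The SOXE subgroup is represented by SOX8 and SOX9. SOX9 (Entrez Gene 6662) kept a strong signal in both groups, and its 2 probe sets gave differences of opposite sign. By 202935_s_at the TGFβ-treated arrays A to D read 9.35, 10.42, 10.08 and 10.07, against 9.65, 10.03, 9.83 and 9.92 on the untreated arrays A to D. Letters B, C and D were higher and letter A lower, and the difference was 0.12 ± 0.20 SE (95% interval -0.32 to 0.56, adjusted p = 0.939). Without treated replicate A it was 0.33 and did not pass either (adjusted p = 0.398), and without treated replicate B it was -0.02. By 202936_s_at the TGFβ-treated arrays read 9.15, 9.80, 9.79 and 9.77 and the untreated arrays 9.42, 10.08, 9.69 and 9.78 (-0.11 ± 0.18 SE, 95% interval -0.51 to 0.28, adjusted p = 0.937). SOX8, a relative of SOX9 with roles in the testis and in glia, had 1 probe set with a low signal that averaged 3.03 ± 0.09 in TGFβ-treated and 2.93 ± 0.17 in untreated cells (difference 0.10 ± 0.10 SE, adjusted p = 0.897).

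SOX2 of the SOXB1 subgroup keeps stem cells pluripotent, and SOX7 of the SOXF subgroup acts in blood vessels. By 213721_at SOX2 averaged 5.11 ± 0.12 in both groups (SD, n = 4 in each), with a difference of 0.00 ± 0.10 SE. The SOX2 probe set whose groups did not overlap, 228038_at, read 2.89, 2.62, 2.78 and 2.71 on TGFβ-treated arrays A to D and 3.00, 2.99, 3.005 and 2.94 on untreated arrays A to D. All 4 letters were lower, but the signal lies at the 16.55 percentile of all probe sets (difference -0.235 ± 0.09 SE, adjusted p = 0.539; 0.276 with the block). The remaining 2 SOX2 probe sets differed by -0.10 and 0.16. SOX7 lay between 2.31 and 2.77 by both of its probe sets, with differences of 0.06 and 0.11 (smallest adjusted p = 0.839).

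SOX genes outside the 10 gave no call either. Of 9 others measured, SOX1, SOX3, SOX10, SOX14, SOX15, SOX17, SOX18, SOX21 and SOX30, none rose and none fell, with or without the block. SOX1 had the smallest p, at -0.135 ± 0.095 SE (adjusted p = 0.825), but 2 of its 3 probe sets were higher. SOX14 had the next, at 0.12 ± 0.10 SE (adjusted p = 0.862). RNAs transcribed beside or across SOX genes had low signals, at most 4.78 on any array. None of the 4 measured passed, SOX2-OT, SOX9-AS1, SOX21-AS1 and SOX1-OT among them, and SOX9-AS1 had 0.10 ± 0.11 SE (adjusted p = 0.911) and SOX1-OT 0.09 ± 0.10 SE (adjusted p = 0.911).

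Among genes reported elsewhere as targets of SOX4, 2 of 10 fell, none rose and 8 did not pass, with a median difference of -0.01 over the list and 0.01 over all genes. Over all genes 0.576% were called, 44 of them lower. Neither gene was called when the mean of all probe sets of a gene was taken. PTCH1, the hedgehog receptor, fell to 5.07 in TGFβ-treated cells, against 6.31 in untreated cells (-1.24 ± 0.15 SE, adjusted p = 0.00379; 3 of its 5 probe sets were lower). FZD5, a Wnt receptor, fell to 5.11 in TGFβ-treated cells, against 6.03 in untreated cells (-0.92 ± 0.17 SE, adjusted p = 0.0471), but by 1 of its 2 probe sets, and it lost the call when treated B, C or D or untreated A, C or D was left out (adjusted p up to 0.184). EZH2, a histone methyltransferase that SOX4 activates in mouse mammary cells, averaged 7.78 in TGFβ-treated and 7.98 in untreated cells (-0.21 ± 0.15 SE, adjusted p = 0.8287).

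Cartilage genes that SOX9 drives together with SOX5 and SOX6 had low to middling signals, at most 6.03 on any array, and none of 10 passed. MATN1, a matrix protein of cartilage, had 0.13 ± 0.08 SE (adjusted p = 0.796) and COL11A2, a chain of a cartilage collagen, 0.14 ± 0.10 SE (adjusted p = 0.826), with a list median of 0.095. Of 5 pluripotency factors measured that act with SOX2 none passed. POU5F1, also on that list, was not among the genes tested. KLF4, which cancer cell lines also use, averaged 11.17 in TGFβ-treated and 10.73 in untreated cells and was called higher only with the block (0.44 ± 0.15 SE; adjusted p = 0.392 without the block, 0.0402 with it). NANOG, a homeodomain factor of stem cells, had 0.11 ± 0.08 SE (adjusted p = 0.843).

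The genes whose signals over the 8 arrays lay closest to that of SOX4 by 201417_at, among 11865 genes with signals in the upper 60%, were ASCC1, TM9SF2, DNAJB6, FGF14 and GABARAPL2. Their Pearson r was 0.99, 0.99, 0.99, 0.98 and 0.98 over the 8 arrays and between 0.98 and 0.99 after removal of the group means. With both arrays of letter A left out, r was between 0.90 and 0.96 over 6 arrays. The 5 genes were chosen by their r over all 8 arrays, these 6 included, so this is not a separate check. None of the 5 passed the test between groups, with differences of -0.27 to -0.17 (adjusted p = 0.78 to 0.875). The 8 arrays include treated replicate A, where SOX4 and these genes were all at their lowest.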

How the data were processed

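The deposited table holds log2 signals, 1 per probe set and array, that the authors computed with RMA, as the submitters' processing notes name it. RMA corrects background, normalizes between arrays and summarises probes. Its version, the set of arrays normalized together and any genome build: not given in the sources used here; the log2 scale is inferred from the values (1.68 to 13.92). Per the labels' protocols, RNA was extracted with Trizol and labelled as biotinylated cRNA. The number of arrays limits the precision. Low RMA signals understate changes.

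After removal of 62 controls, 54613 probe sets were fitted with limma 3.58.1 in R 4.3.3 (treated minus untreated, Benjamini-Hochberg over the whole table, threshold 0.05, two-sided). A second fit used 1 probe set for each of 19775 genes, the one with the highest mean, from 41091 probe sets annotated to 1 gene in GEO's platform table (1801 name several genes and 11721 none). Array measures used exact permutation tests. Figures used matplotlib 3.10.9 in Python 3.11.15. The fits were tested on simulated data over genes. Without the block 33% of 1.5-fold and 86% of 2-fold changes were called, and with it 3% and 71%. A change of the size seen for SOX4 or SOX13 could thus be missed. The simulated noise held no letter effect, so a gain from the block was not tested. No 2 of the 8 arrays held identical values.

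Deviations of same-letter arrays from their group means correlated at 0.49, 0.69, 0.345 and 0.30 for A to D. The letters are therefore taken to pair the arrays, a pairing the labels do not state. Values are from the fit without the block unless it is named. Named genes are all SOX probe sets, the 2 genes of each context list with the smallest p, SMAD7, SKIL and the 5 genes most like SOX4; CDH1, EZH2 and the markers were named after their values were seen. The members and lists were chosen with earlier results of these data known. Some listed genes were not analysed here. The SOX4 pairs, their tests and the block fits without a letter were added after seeing the data.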

Additional observations from a re-analysis of the deposited data

Results flagged for a closer look

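Each of the 35 SOX probe sets was looked at in both groups for a single array far from the other 3, by Dixon's criterion for 4 samples, and 6 of these 70 sets of 4 were picked out, where chance picks about 1 in 20. SOX4 by 201417_at read 8.19 on treated replicate A, against 9.09 to 9.25 on the other treated arrays. SOX9 by 202936_s_at read 9.15 on the same array, against 9.77 to 9.80. SOX6 by 224178_s_at read 3.92 on treated replicate B, against 4.30 to 4.34, and SOX4 by 1567906_at read 3.86 on treated replicate C, against 3.76 to 3.78. Among untreated arrays SOX2 by 214178_s_at read 3.76 on replicate D, against 3.91 to 3.93, and SOX7 by 228698_at 2.64 on replicate C, against 2.45 to 2.47. The last 4 are low signals whose distance from the others is at most 0.38 on the log2 scale in any of them.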

How the results depend on the processing

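No SOX gene or probe set was called in the fit without the block under any of the 6 other settings or without any 1 array. With the letter as a replicate block 954 probe sets and 705 genes were called in place of 140 and 114, 1 SOX probe set, 1 SOX gene (SOX4, -0.41) and 1 pluripotency factor. With the block and both arrays of a letter left out, 1 SOX probe set was called without A and 0 without B, C or D, and 0 SOX genes without any letter. Signs turned only for small differences: SOX2 (0.002) was -0.011 with centring on the array median, -0.004 with quantile normalization again, -0.042 with the mean of all probe sets, and -0.021 and -0.014 with the block and letter C or D left out. With the mean of all probe sets SOX11 was 0.052 and SOX5 0.062. With the block and letter A left out SOX11 was 0.061 and SOX7 -0.023. With 1 array left out SOX2 ranged from -0.052 to 0.053, SOX11 from -0.237 to 0.002, SOX12 from -0.119 to 0.07, SOX7 from -0.012 to 0.131 and SOX9 from -0.024 to 0.332. In those fits between 33 and 240 probe sets and 46 to 232 genes were called in all, lowest without untreated D and treated D, highest without treated A. The count of called SOX4 targets was 2, but 1 with quantile normalization again and 0 with the mean of all probe sets. It was also 1 without the _x, _s and _a probe sets, whose probes can match more than 1 transcript. With 1 array left out it was 1 to 2. The causes were not tested. Centring and quantile normalization moved the median by -0.01.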
